A study of Mus musculus with 4 samples.

Results

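The circadian clock genes described here are Clock, Arntl (also called Bmal1), Per1, Per2, Per3, Cry1, Cry2, Nr1d1, Nr1d2 and Dbp. They were chosen by gene symbol, and all 10 were found, each under 1 identifier, among the 55487 genes listed. Their RNA was measured in nuclei of adult wild-type mice, taken from the whole brain except the olfactory bulb. Nuclei of excitatory neurons and of inhibitory neurons were separated by fluorescence-activated sorting, with 2 libraries of each, all labelled as batch 1. The sources used here do not give the animals' exact age, the sort markers, the hour of day at which tissue was taken or whether replicates came from separate animals. P-values therefore measure only the spread between these libraries, which may be technical. Values are TPM, transcript abundances per length that the authors scaled to nearly equal totals, so sequencing depth is unknown. Levels of different genes can be set side by side only roughly, since the annotation and the use of strand are not given.

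The mammalian clock is a feedback loop of transcription that runs in most cells, neurons included. The proteins CLOCK and ARNTL pair and activate genes that carry E-box motifs, among them the Per and Cry genes, the nuclear receptor genes Nr1d1 and Nr1d2, and Dbp. PER and CRY proteins return to the nucleus and repress CLOCK and ARNTL, while NR1D1 and NR1D2 repress Arntl through ROR elements. DBP acts on D-box motifs, and Per1 is also induced by neuronal activity through cAMP response elements. Across the day, Arntl and Cry1 transcripts peak at other hours than those of Dbp, Nr1d1 and the Per genes, with Clock nearly flat in many tissues.

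Upstream sequence was available for 9 of the 10 genes in 13 windows, each from 250 bases before to 50 bases after a RefSeq start site (build GRCm38.p6). These windows were searched on both strands for CACGTG (E-box), TTANGTAA (D-box), TAGGTCA (core of a ROR element) and TGACGT (part of a cAMP response element). The sequences below are those with a match, written on the gene's own strand, with the matched letters in capitals. Exonic bases at the end nearest the start site are left out of the longer ones.

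Per3, chr4:151044666-151044915, minus strand, D-box:
Per3: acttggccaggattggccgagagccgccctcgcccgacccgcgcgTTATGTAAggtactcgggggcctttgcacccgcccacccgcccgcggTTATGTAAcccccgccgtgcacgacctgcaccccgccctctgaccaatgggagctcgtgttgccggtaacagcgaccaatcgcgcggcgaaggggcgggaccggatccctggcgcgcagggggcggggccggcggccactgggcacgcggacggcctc
Per1, earlier start, chr11:69098699-69098947, plus strand, E-box:
Per1: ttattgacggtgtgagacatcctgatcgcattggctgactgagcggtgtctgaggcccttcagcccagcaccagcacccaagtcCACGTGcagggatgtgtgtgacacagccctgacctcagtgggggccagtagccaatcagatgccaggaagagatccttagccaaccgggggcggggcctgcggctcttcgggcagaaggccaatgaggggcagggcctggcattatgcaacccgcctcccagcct
Per1, later start, chr11:69099902-69100151, plus strand, part of a cAMP response element:
Per1: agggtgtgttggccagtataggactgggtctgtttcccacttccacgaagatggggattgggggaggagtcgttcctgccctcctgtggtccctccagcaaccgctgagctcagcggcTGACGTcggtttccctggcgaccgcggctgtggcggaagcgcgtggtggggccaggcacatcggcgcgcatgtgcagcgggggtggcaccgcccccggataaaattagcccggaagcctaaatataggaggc
Cry1, chr10:85185065-85185304, minus strand, E-box:
Cry1: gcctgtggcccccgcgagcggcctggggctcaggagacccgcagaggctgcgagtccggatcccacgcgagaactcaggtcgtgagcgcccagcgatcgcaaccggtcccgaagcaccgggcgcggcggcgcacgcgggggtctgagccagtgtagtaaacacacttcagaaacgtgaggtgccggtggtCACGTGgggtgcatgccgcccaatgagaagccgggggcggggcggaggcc
Arntl, chr7:113207529-113207558, plus strand, site just after a start, ROR element:
Arntl: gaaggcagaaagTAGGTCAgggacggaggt

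The Per3 window held the D-box letters at 205 and 158 bases before the start site, and no other clock gene window held them. In Per1 the E-box began 166 bases before the earlier start and the TGACGT letters 132 bases before the later one. In Cry1 the E-box began 60 bases before the start, and the ROR element of Arntl lay 30 bases after its second start. Of all 32851 windows of this length, 7.15% held the E-box, 2.32% the D-box, 2.61% the ROR element and 7.51% the TGACGT letters. Among the 13 clock gene windows, the counts were 2, 1, 1 and 1. A match describes letters only, and a window without one says nothing of sites elsewhere in the gene.

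The sort was checked first. Slc17a7, the vesicular glutamate transporter gene, stood at 365 and 367 TPM in excitatory libraries and at 60.2 and 52.2 TPM in inhibitory ones. Gad1, which encodes an enzyme of GABA synthesis, stood at 44.98 and 38.1 TPM in excitatory and at 226 and 207 TPM in inhibitory libraries. Each group thus held transcripts of the other. Of 10 excitatory neuron markers, 9 were called higher in excitatory nuclei, while Slc17a6, the vesicular glutamate transporter gene typical of thalamus and brainstem, was called higher in inhibitory nuclei, at 22.4 and 20.3 against 88.0 and 78.4 TPM (limma adjusted p = 0.00176). Inhibitory libraries were also higher for markers of striatal neurons (10 of 10 tested called), Purkinje cells (6 of 7), cerebellar granule cells (7 of 9) and thalamic neurons (5 of 7), against 6.62% of all tested genes. Granule cells and most thalamic neurons are glutamatergic, so in these libraries the labels do not give a clean contrast by transmitter, and markers of brain regions differ too. The part of these neuron types in the clock gene differences was not tested.

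Of the 10 clock genes, 1 was called higher in excitatory nuclei, 0 were called higher in inhibitory nuclei and 9 did not pass the test (limma, Benjamini-Hochberg adjusted p under 0.05 over the 26055 genes tested). Over all tested genes, 12.0% were called (5.43% toward excitatory and 6.62% toward inhibitory), so the share among clock genes was near the background. At an unadjusted p under 0.05 there were 5 clock genes, 3 toward excitatory and 2 toward inhibitory, against 27.8% of all genes. In TPM as deposited, the libraries of the groups did not overlap for 8 of the clock genes, 4 in each direction. Over all genes the share was 56.2% (23.0% toward excitatory and 33.3% toward inhibitory nuclei). On the log2(TPM + 1) scale used for every log2 fold change here, the median difference, excitatory over inhibitory, was 0.195 for the clock genes and -0.0732 for all tested genes. In bulk libraries such as these, fewer cells carrying a transcript and less of it per cell cannot be told apart. All 10 genes passed the filter on low values in both groups.

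**Figure D1:**
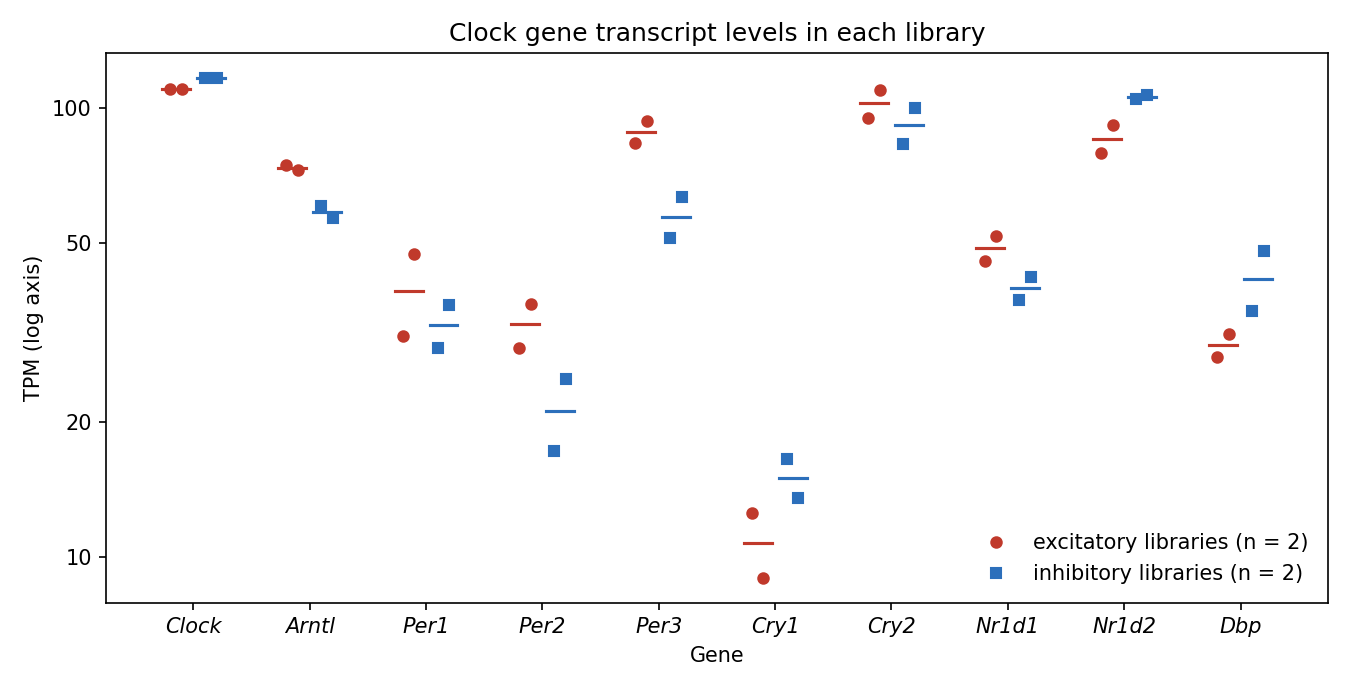
TPM (log axis) of each clock gene in each library; circles are the 2 excitatory libraries, squares the 2 inhibitory ones and short lines the group means. Clock is the highest in both groups and Cry1 the lowest, and Per3 is the gene whose separation passed the test.

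The partners that drive the loop came first. Clock (chromosome 5, 76209868 to 76304792, minus strand, mm10), the histone acetyltransferase and DNA-binding partner of ARNTL, stood at 110.3 and 110.5 TPM in excitatory libraries. In inhibitory libraries it stood at 116.9 TPM in both. Replicates were nearly equal, the groups did not overlap, and the log2 fold change was -0.08 ± 0.09 (SE, limma adjusted p = 0.628). The median over all tested genes was close to this, at -0.0732. The Clock difference was -0.0083 with median ratio scaling and -0.074 with quantile normalization. Clock overlaps the spans of Ube2n-ps1 (9.43 to 11.4 TPM) and Gm43658 (13.7 to 17.7 TPM) on the same strand, with 0 shared exonic bases. Whether their reads entered the value of Clock was not tested, so that value is uncertain. Arntl (chromosome 7, 113207465 to 113314126, plus strand) stood at 74.8 and 72.9 TPM in excitatory and at 60.6 and 56.9 TPM in inhibitory libraries. Both excitatory values were above both inhibitory ones, by 1.26-fold in the means. The log2 fold change of 0.32 ± 0.10 did not pass the test (limma adjusted p = 0.103). Arntl shares 33 exonic bases with Gm45355, a transcript of the opposite strand. Gm45355 stood at 17.1 and 17.7 TPM in excitatory and at 9.62 and 14.5 TPM in inhibitory libraries. Whether its reads entered the value of Arntl was not tested, so that value is uncertain.

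The Per genes, which encode the repressors of the negative arm, all had higher means in excitatory nuclei, and Per3 passed the test. Per3 (chromosome 4, 151003652 to 151044665, minus strand), the gene with the D-box letters printed above, stood at 83.9 and 93.6 TPM in excitatory libraries and at 51.4 and 63.4 TPM in inhibitory ones. The groups did not overlap. Its means were 88.7 ± 6.85 against 57.4 ± 8.51 TPM (SD, n = 2), a 1.55-fold difference with a log2 fold change of 0.63 ± 0.14 (limma adjusted p = 0.0387). Per3 overlaps the span of Camta1, a protein-coding gene on the same strand, with 0 shared exonic bases. Camta1 stood at 96.3 and 102 TPM in excitatory and at 113 and 131 TPM in inhibitory libraries. Whether Camta1 reads entered the value of Per3 was not tested, so that value is uncertain. The Per3 call was lost without the filter on low values (adjusted p = 0.0944), with no trend in the variance prior (0.121) and with any 1 library left out (0.1 to 0.199). Over 12 alternatives its adjusted p ran from 0.0097 to 0.199 and its log2 fold change from 0.48 to 0.77.

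Per2 (chromosome 1, 91415982 to 91459324, minus strand), a core repressor, stood at 29.2 and 36.7 TPM in excitatory and at 17.2 and 24.9 TPM in inhibitory libraries. The lowest excitatory library was above the highest inhibitory one. Its log2 fold change of 0.63 ± 0.22 was as large as that of Per3, but its replicates lay farther apart, and it did not pass the test (limma adjusted p = 0.119). Per1 (chromosome 11, 69095217 to 69109960, plus strand), which also responds to neuronal activity, stood at 31.1 and 47.3 TPM in excitatory and at 29.3 and 36.5 TPM in inhibitory libraries. Its groups overlapped, and excitatory replicate 2 alone stood above the rest. The log2 fold change was 0.23 ± 0.22 (limma adjusted p = 0.579) and turned to -0.0698 without excitatory replicate 2.

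The Cry genes, which encode the partners of PER in repression, had means that lay in opposite directions. Cry1 (chromosome 10, 85131700 to 85185064, minus strand) stood at 12.5 and 8.98 TPM in excitatory and at 16.5 and 13.5 TPM in inhibitory libraries. The groups did not overlap, though the gap between the nearest libraries was smaller than that between replicates. Cry2 (chromosome 2, 92403646 to 92434043, minus strand) stood at 95.3 and 110.1 TPM in excitatory and at 83.2 and 100.1 TPM in inhibitory libraries, and its groups overlapped. Neither passed the test, with log2 fold changes of -0.46 ± 0.23 for Cry1 (limma adjusted p = 0.263) and 0.16 ± 0.13 for Cry2 (limma adjusted p = 0.490). Cry2 shares 295 exonic bases with D930015M05Rik, a transcript of the opposite strand at 19.7 to 26.0 TPM. No source used here says whether reads were counted by strand, so the value of Cry2 is uncertain.

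Nr1d1 and Nr1d2 encode the REV-ERB receptors, repressors of Arntl. Nr1d1 (chromosome 11, 98767932 to 98775333, minus strand) stood at 45.7 and 51.8 TPM in excitatory and at 37.3 and 42.1 TPM in inhibitory libraries. Nr1d2 (chromosome 14, 18204054 to 18239127, minus strand) stood at 79.3 and 91.8 TPM in excitatory and at 105.2 and 107.3 TPM in inhibitory libraries. Neither gene had overlapping groups, and they lay in opposite directions. The log2 fold changes were 0.29 ± 0.13 for Nr1d1 (limma adjusted p = 0.218) and -0.31 ± 0.11 for Nr1d2 (limma adjusted p = 0.134), and neither passed the test. Nr1d1 shares 263 exonic bases with Thra, the thyroid hormone receptor gene on the opposite strand, which stood at 152 and 180 TPM in excitatory and at 126 and 118 TPM in inhibitory libraries. The value of Nr1d1 is therefore uncertain.

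Dbp (chromosome 7, 45705088 to 45710203, plus strand) encodes an output factor of the clock that binds D-box motifs. It stood at 27.9 and 31.4 TPM in excitatory and at 35.4 and 48.1 TPM in inhibitory libraries. All inhibitory values were above all excitatory ones, but the inhibitory replicates were 1.36-fold apart. The log2 fold change of -0.47 ± 0.18 did not pass the test (limma adjusted p = 0.154). Dbp shares 539 exonic bases with Sphk2 on the opposite strand (14.8 to 20.4 TPM), so its value is uncertain.

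The order of levels was similar at both ends. Clock was highest and Cry1 lowest in both groups, at means of 110.4 and 10.8 TPM in excitatory and 116.9 and 15.0 TPM in inhibitory nuclei. In excitatory nuclei the order was Clock, Cry2, Per3, Nr1d2, Arntl, Nr1d1, Per1, Per2, Dbp and Cry1. Of these neighbours, Per3 and Nr1d2 overlapped, as did Nr1d1 and Per1, Per1 and Per2, and Per2 and Dbp. In inhibitory nuclei it was Clock, Nr1d2, Cry2, Arntl, Per3, Dbp, Nr1d1, Per1, Per2 and Cry1. Here Arntl overlapped Per3, and Dbp overlapped Nr1d1. The places of Clock, Arntl, Per3, Cry2, Nr1d1 and Dbp rest on values called uncertain above. The 10 genes stood above 51.3% (Cry1) to 95.2% (Clock) of tested genes in mean TPM. Their summed level was 590 and 655 TPM in excitatory and 553 and 610 TPM in inhibitory libraries, so the totals overlapped.

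Ratios between clock genes within a library do not depend on how libraries are scaled to each other. The ratio of Nr1d2 to Nr1d1 was 1.74 and 1.77 in excitatory and 2.82 and 2.55 in inhibitory libraries, a gap wider than that between replicates. For Arntl to Clock it was 0.678 and 0.660 in excitatory against 0.519 and 0.487 in inhibitory libraries. These ratios did not overlap between groups. That follows from the levels above, since the 2 genes of each pair separated in opposite directions. Dbp to Arntl, an output gene over its activator, was 0.373 and 0.431 against 0.583 and 0.845, and its 2 genes likewise separated in opposite directions. By contrast, Per3 to Per2 was 2.87 and 2.55 in excitatory and 2.98 and 2.54 in inhibitory libraries, and these overlapped. Per1 to Per2 was 1.06 and 1.29 against 1.7 and 1.46, without overlap, though both genes had higher means in excitatory nuclei. The gap between its nearest libraries was smaller than that between replicates. Cry2 to Cry1 differed more between replicates, at 7.61 and 12.3 against 5.04 and 7.41, and narrowly did not overlap. The values of Clock, Arntl, Nr1d1, Dbp, Per3 and Cry2 are uncertain, as given above. The pairs were chosen after the values were seen, and with 2 libraries a group the smallest p of an exact permutation test (two-sided) is 0.333.

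**Figure D2:**
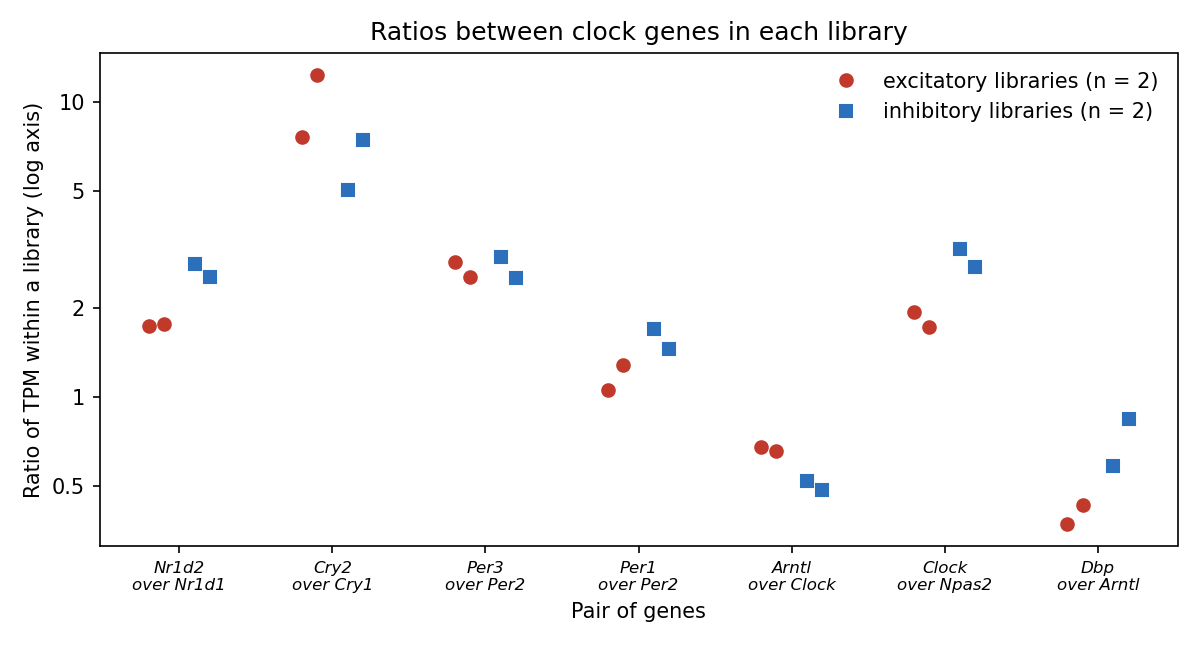
Ratio of TPM values of pairs of clock genes within each library (log axis); circles are the 2 excitatory libraries and squares the 2 inhibitory ones. Nr1d2 over Nr1d1 is 1.74 and 1.77 in excitatory and 2.82 and 2.55 in inhibitory libraries, while Per3 over Per2 overlaps between groups. Nr1d2 and Nr1d1 separate in opposite directions, so their ratio must separate too, and the value of Nr1d1 is uncertain.

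In TPM as deposited, replicates differed in the same direction in both groups for all 10 clock genes, though Clock by only 0.0015 and 0.0004 on the log2 scale. Of all tested genes, 42.8% had opposite signs or a difference of 0. Other scalings, given below, undo the shared direction for Nr1d2 and put Clock below zero in both groups. Replicate 2 was above replicate 1 in both excitatory and inhibitory nuclei for 8 genes, Clock among them, against 37.4% of all tested genes. It was below replicate 1 in both for 2 genes, against 19.8%. The numbers come from the titles, and no source used here says that replicates of the same number share an animal or a day. Per1 was the widest in excitatory nuclei, with replicate 2 at 1.52 times replicate 1, and 1.25 times in inhibitory nuclei. Per2 had ratios of 1.26 and 1.45, Per3 of 1.12 and 1.23, Dbp of 1.13 and 1.36, Cry2 of 1.16 and 1.20, and Nr1d1 of 1.13 in both groups. Cry1 lay the other way at 0.717 and 0.818, as did Arntl at 0.974 and 0.939. Clock, at 1.00 in both groups, did not differ measurably. Nr1d2 stood at 1.16 in excitatory and 1.02 in inhibitory nuclei.

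By at least 0.1 on the log2 scale, 6 clock genes (Per1, Per2, Per3, Cry2, Nr1d1 and Dbp) were above in replicate 2 in both groups, against 23.6% of all genes. With median ratio scaling or quantile normalization, 6 stayed above zero in both groups, 3 were below in both (Arntl, Cry1 and Clock) and Nr1d2 had opposite signs. Under these settings 28.9% and 28.2% of all genes were above in both groups, and 27.6% and 28.2% below. Across the 26055 genes, replicate differences of the groups correlated at Pearson r = 0.0957, a description over genes that are not independent. These differences were not tested, since no label gives the replicate number a meaning across groups.

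Many non-neuronal markers also differed between replicates in the same direction in both groups, in TPM as deposited. Replicate 2 was below replicate 1 in both groups for 8 of 10 oligodendrocyte, 9 of 10 astrocyte and 7 of 10 microglia markers. The same held for 2 of 4 tested endothelial and mural markers, and for 19.8% of all tested genes. It was above in both groups for 0, 1, 1 and 1 of these markers, in the same order, against 37.4% of all tested genes. These markers were not counted under the other scalings. The summed oligodendrocyte level was 465 and 386 TPM in excitatory and 413 and 296 TPM in inhibitory libraries. For astrocyte markers it was 541 and 591 TPM in excitatory and 333 and 282 TPM in inhibitory libraries. The largest contributor was Slc1a2 in excitatory (359 and 430 TPM) and Slc4a4 in inhibitory libraries (192 and 150 TPM). For microglia the sum was 70.3 to 96.4 TPM. No defining marker of oligodendrocytes, astrocytes or microglia was at 0, while the endothelial gene Cldn5 was listed at 0 in both inhibitory libraries. Their part in the replicate differences was not tested, nor was that of the hour of collection.

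**Figure D3:**
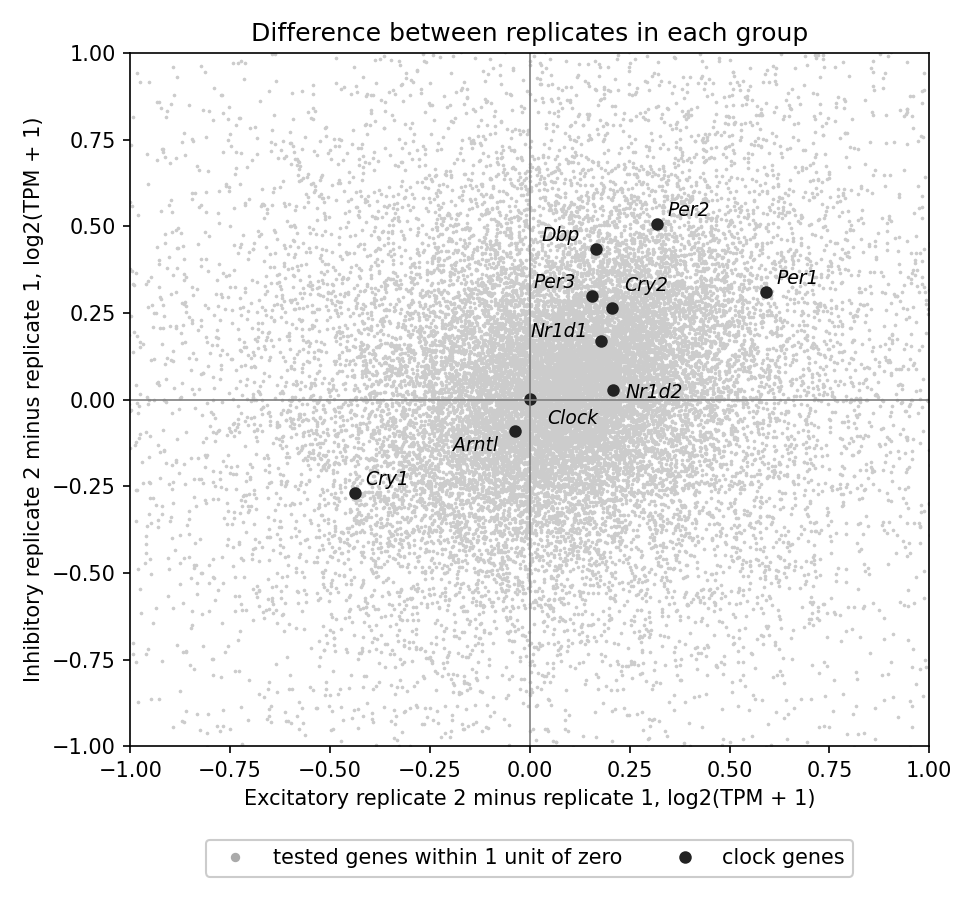
Replicate 2 minus replicate 1 on the log2(TPM + 1) scale in excitatory (horizontal) and inhibitory (vertical) libraries; grey dots are the tested genes that lie within 1 unit of zero and black dots the clock genes. Per1 and Per2 lie farthest up and right and Cry1 farthest down and left, with Clock at the origin.

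Other genes of the clock were described from lists written from general knowledge. Of 31 genes listed, 31 were tested, 2 were higher in excitatory nuclei, 2 were higher in inhibitory nuclei and 27 did not pass (limma, adjusted over all genes), near the background of 12.0%. Among other factors of the core loop, 1 of 4 was higher in excitatory and 0 in inhibitory nuclei. Npas2, which can take the place of CLOCK beside ARNTL, stood at 56.6 and 63.8 TPM in excitatory and at 36.7 and 42.4 TPM in inhibitory libraries. The groups did not overlap, and the log2 fold change was 0.59 ± 0.13 (limma adjusted p = 0.0386). As for Per3, the Npas2 call was lost without the filter, with no trend in the variance prior and with any 1 library left out. Npas2 overlaps the spans of Gm3617 on the same strand and Gm20428 on the opposite strand, with 0 shared exonic bases. Gm3617 stood at 17.7 and 22.9 TPM in excitatory and at 12.2 and 12.4 TPM in inhibitory libraries. For Gm20428 the values were 13.4 and 14.2 against 9.49 and 14.4 TPM. Whether their reads entered the value of Npas2 was not tested, so that value is uncertain. The ratio of Clock to Npas2 was 1.95 and 1.73 in excitatory against 3.18 and 2.76 in inhibitory libraries. Clock and Npas2 separated in opposite directions, so their ratio had to separate too, and both values are uncertain.

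The ROR receptors compete with NR1D1 and NR1D2 at ROR elements and activate Arntl. Rora, a marker of thalamic and Purkinje neurons too, stood at 66.2 and 54.7 TPM in excitatory and at 82.9 and 118 TPM in inhibitory libraries (limma adjusted p = 0.0675). Rorb stood at 15.9 and 22.3 against 12.0 and 12.0 TPM (limma adjusted p = 0.127). Arntl2, a paralogue of Arntl, stood at 54.96 and 63.7 against 39.7 and 47.7 TPM (limma adjusted p = 0.111). None of these 3 passed the test, and none had overlapping groups. Rora shares 82 exonic bases with Gm15511, a transcript of the opposite strand at 5.2 to 11.0 TPM, so its value is uncertain.

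Among 10 output and repressor factors, 1 was higher in each group. Bhlhe40 and Bhlhe41 encode related repressors, also called DEC1 and DEC2, that bind E-boxes and oppose CLOCK and ARNTL. Bhlhe40 was higher in excitatory nuclei, at 37.7 and 34.8 against 19.5 and 22.0 TPM (log2 fold change 0.78 ± 0.14, limma adjusted p = 0.0217). Bhlhe41 was higher in inhibitory nuclei, at 25.0 and 28.0 against 40.7 and 42.9 TPM (log2 fold change -0.64 ± 0.13, limma adjusted p = 0.0301). This pair thus lay in opposite directions. Both calls were lost without the filter, with no trend in the variance prior and with any 1 library left out. Bhlhe41 shares 1280 exonic bases with Gm43909 and Bhlhe40 shares 118 with 0610040F04Rik, both on the opposite strand, so these values are uncertain.

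Dbp has relatives that bind the same D-box motif. Tef stood at 171 and 192 TPM in excitatory and at 178 and 182 TPM in inhibitory libraries, above every one of the 10 clock genes, and its groups overlapped. Hlf stood at 33.0 and 31.9 against 29.02 and 28.5 TPM, and Nfil3, a repressor at the same motif, at 5.15 and 6.03 against 5.05 and 7.15 TPM. None of these 3 passed the test (limma adjusted p = 0.964, 0.445 and 0.866). Ciart, an E-box driven repressor, stood at 9.23 and 13.4 against 13.1 and 16.7 TPM, with replicate 2 above replicate 1 in both groups as for Per1 and Dbp.

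**Figure D4:**
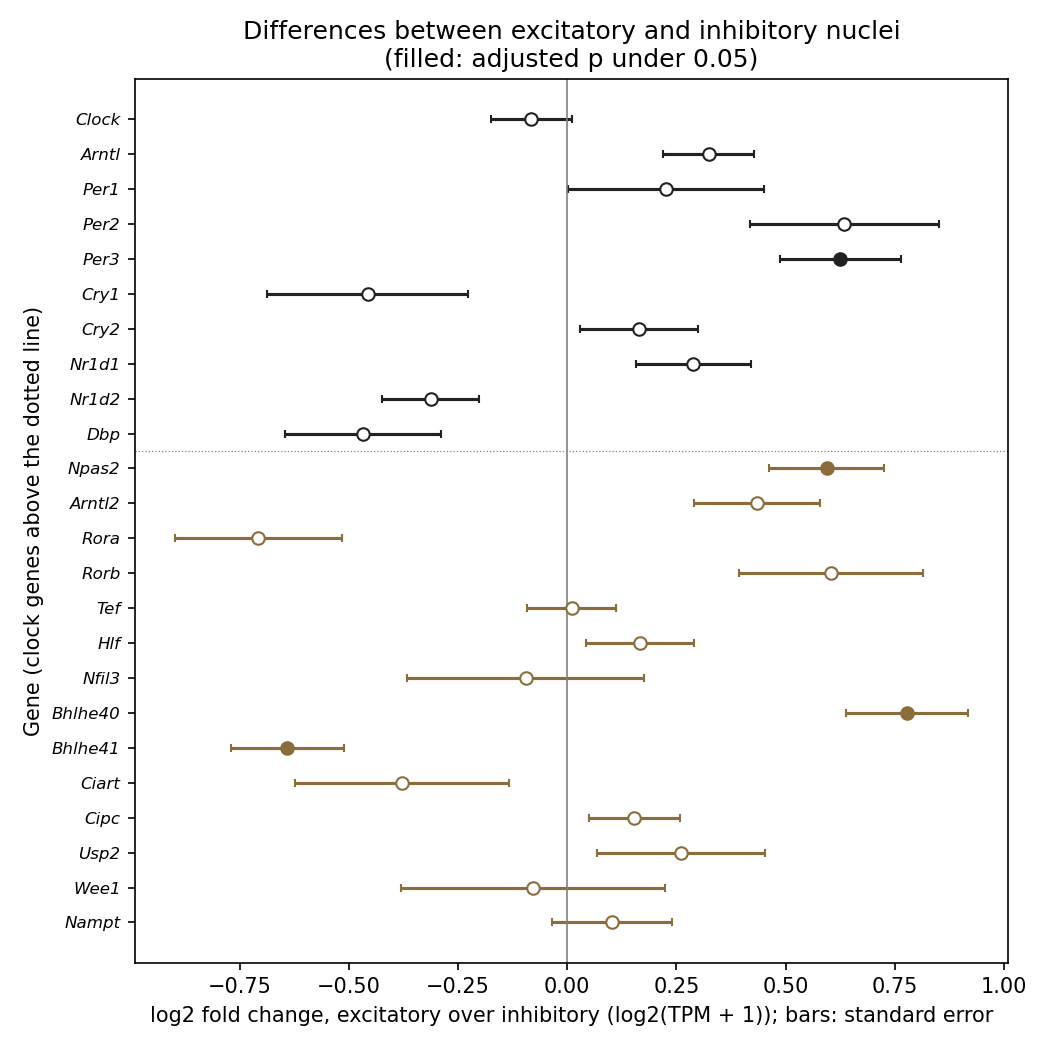
Log2 fold change, excitatory over inhibitory, with its standard error for the 10 clock genes (above the dotted line) and 14 other clock factors (below); filled points passed the test. Per3, Npas2 and Bhlhe40 are filled on the excitatory side, and Bhlhe41 on the inhibitory side.

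Of 7 kinases and ubiquitin ligase parts that act on PER and CRY proteins, 1 was higher in inhibitory nuclei. This was Fbxl21, an F-box protein that targets CRY, at 3.75 and 3.50 against 8.59 and 11.98 TPM (log2 fold change -1.27 ± 0.26, limma adjusted p = 0.0324). The call was lost without the filter and with any 1 library left out. Csnk1d and Csnk1e, the casein kinases that phosphorylate PER, had overlapping groups, at 84.3 and 90.4 against 89.1 and 102.5 TPM and at 74.5 and 93.4 against 79.8 and 85.1 TPM. Of 10 protein partners and cofactors, among them Timeless, Nono and Sirt1, 0 were called by limma, and 0 had an unadjusted p under 0.05. The largest log2 fold change there was that of Timeless, at 0.42 ± 0.33 (limma adjusted p = 0.465).

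For each clock gene, the tested gene with the most similar values was taken as the one at the smallest Euclidean distance over the 4 log2(TPM + 1) values, predicted genes left out. These were Ric1 for Clock (distance 0.057), Fgd4 for Arntl (0.097), Fam57b for Per1 (0.12), Mir28b for Per2 (0.20) and Mrtfa for Per3 (0.099). For the remaining genes they were Rcl1 for Cry1 (0.18), Kat6b for Cry2 (0.046), Gse1 for Nr1d1 (0.057), G3bp2 for Nr1d2 (0.051) and Abcb9 for Dbp (0.12). Mrtfa, for example, stood at 82.3 and 100 TPM in excitatory and at 51.5 and 63.9 TPM in inhibitory libraries. None of the 10 was another clock gene. With 4 libraries such likeness is a description only.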

How the data were processed

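The authors deposited 1 table of TPM values with 1 column per library, made from rRNA-depleted, strand-specific, paired libraries of sorted nuclei, per the labels' protocols. Tools named, per the submitters' processing notes, were StringTie 2.2.1, Bowtie2 2.3.5, HISAT2 2.2.1 and fastp 0.23.4, with mm10. The sources used here do not give their roles, the annotation or the use of strand. Columns summed to 999833 to 999891 TPM, and TPM keeps no depth.

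The 26055 genes that reached 1 TPM in 2 or more libraries were compared on the log2(TPM + 1) scale by limma 3.58.1 in R 4.3.3, with a trended variance prior (2 residual and 4.04 prior degrees of freedom) and two-sided Benjamini-Hochberg adjusted p under 0.05. The fit was also run on simulated data with independent noise drawn from its own variances. Such data cannot show how the fit holds for replicates of unknown origin. Fold means ratio of mean TPM. Alternatives changed the pseudocount, filter, scaling, variance trend, block and libraries. Gene models came from GENCODE M21 (the same build) and start site windows from RefSeq. Members and lists were chosen with earlier results of these data known. Named were the 10 members, up to 4 called genes per list with the smallest p, further list members given as values after they were seen, and nearest genes. Some genes of the lists are not reported here. Figures used matplotlib 3.10.9.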

Additional observations from a re-analysis of the deposited data

How the results depend on the processing

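All 10 clock genes kept their direction under the 12 alternatives, except that Per1 turned to a log2 fold change of -0.0698 without excitatory replicate 2 (0.52 without excitatory replicate 1). Without the filter on low values, 1406 genes were called (666 toward excitatory and 740 toward inhibitory) and 0 clock genes. With no trend in the variance prior, 0 clock genes were called. With any 1 library left out, 1 residual degree of freedom remained and limma called 0 genes in all, in each direction and among clock genes, with 5311 to 5812 genes at an unadjusted p under 0.05 and the smallest adjusted p at 0.0545 to 0.0664. With the replicate number as a block, which no label supports as a pairing, 2 clock genes were called, both toward excitatory (Per2 at adjusted p = 0.0289 beside Per3). The correlation of replicate differences was 0.0957, from 2 pairs. The cause of these changes was not tested. Scaling by median ratio or quantiles changed no clock gene call. TPM holds no counts, so the error from counting, which weighs most on low genes such as Cry1, could not be computed.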

Other observations

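The suprachiasmatic nucleus of the hypothalamus is the brain's central pacemaker, and its nuclei could be among those sorted from whole brain. Of 10 listed markers of it, 7 were tested, 4 were higher in inhibitory nuclei and 1 was higher in excitatory nuclei (limma, adjusted over all genes), against 6.62% and 5.43% of all tested genes. Vip, a peptide of pacemaker neurons and of cortical interneurons, stood at 7.28 and 4.71 TPM in excitatory and at 46.1 and 34.7 TPM in inhibitory libraries. Its receptor gene Vipr2 stood at 2.53 and 2.61 against 12.4 and 10.7 TPM, the vasopressin gene Avp at 3.28 and 1.89 against 11.4 and 13.1 TPM and the homeobox gene Lhx1 at 2.26 and 1.12 against 6.71 and 7.39 TPM. Grp, a peptide gene also transcribed in cortex and hippocampus, lay the other way at 8.19 and 9.19 against 1.74 and 2.48 TPM. The more restricted genes Six6 and Nms were listed at 0 in 3 of the 4 libraries, with inhibitory replicate 1 at 0.158 and 0.786 TPM. The calls of Avp, Grp and Lhx1 were lost without the filter on low values. Whether any of these differences came from suprachiasmatic nuclei was not tested. Markers of striatal, Purkinje, granule and thalamic neurons were also higher in inhibitory libraries, as given above.

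Per1 shares its induction by neuronal activity with the immediate early genes. Of 8 such genes, 4 were higher in excitatory nuclei, 0 were higher in inhibitory nuclei and 4 did not pass, against 5.43% and 6.62% of all tested genes called in these directions. Arc, a synaptic effector, stood at 30.7 and 33.9 against 15.6 and 14.4 TPM, and the orphan receptor gene Nr4a1 at 35.5 and 48.0 against 17.0 and 19.1 TPM. Egr1 stood at 18.7 and 19.0 against 10.2 and 11.4 TPM, and Nr4a3 at 10.7 and 11.2 against 4.46 and 4.497 TPM. The Egr1, Nr4a1 and Nr4a3 calls were lost without the filter, and that of Egr1 also with no trend in the variance prior. The groups did not overlap for 7 of the 8, all toward excitatory nuclei, against 23.0% of all tested genes. The exception was Fos, at 5.12 and 8.99 against 6.79 and 7.64 TPM, which overlapped between groups as Per1 did. Whether Per1 differs from these genes was not tested. Of the 8, 5 had replicate 2 above replicate 1 in both groups and 1, Junb, had it below, against 37.4% and 19.8% of all tested genes.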
